A study of Mus musculus with 12 samples.

Results

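The SLC25 mitochondrial carriers were followed in mouse fat, sampled as adipose tissue from wild-type mice of the strain C57BL/6J at day 7, without or with a scald burn. Members were the protein-coding mouse genes whose symbol begins with Slc25a, 47 of the 27179 Entrez identifiers counted. Polyadenylated RNA was sequenced in 12 libraries from 4 groups of 3, namely untreated and burned adult mice and untreated and burned aged mice. Per the labels' protocols, a burned mouse was held in a 98 °C water bath for 10 s on the back, which burned 20% of the body surface. Adult mice were also held for 2 s on the belly, which added 10% and brought their burn to 30%, while that of aged mice stayed at 20%. Buprenorphine at 0.01 to 0.5 mg/kg was given against pain, and whether untreated mice received it is not given in the sources used here. Neither the fat depot nor sex nor age in weeks is stated there. Libraries carry replicate numbers, and nothing in the labels ties each number to a separate animal, so the p-values speak of library-to-library spread. Age goes together with the deposited table and, after burn, with burn size, and these cannot be told apart.

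SLC25 proteins sit mostly in the inner mitochondrial membrane, where each exchanges or imports particular metabolites that cannot cross on their own. They bring in fuel, phosphate, ADP and cofactors, and they send out ATP, citrate and aspartate. Heat production in brown and beige fat runs on a member of the same protein family, uncoupling protein 1, whose gene Ucp1 carries another name and so is no member here. That process burns fatty acids that enter through the carnitine-acylcarnitine carrier.

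The 47 carriers were sorted by substrate into 9 carriers of cofactors, 1 of acylcarnitines, 4 of adenine nucleotides or phosphate, 5 of ATP-Mg and phosphate, 4 of di- and tricarboxylates, 4 of acidic amino acids, 5 of other amino acids, 2 of iron, 2 of pyrimidine nucleotides, 3 relatives of the uncoupling proteins and 8 others or carriers with no assigned substrate. Of these, 40 passed the filter on low counts in adult mice and 42 in each other comparison. Slc25a2, Slc25a18, Slc25a31, Slc25a41 and Slc25a54 were never tested and had 0 to 21 reads per library. Slc25a31 encodes the ADP/ATP carrier of the testis, and the summed level of 5 testis markers was at most 0.0775 CPM (read counts scaled to library size) in every library. Slc25a21 and Slc25a43 were too low to test in adult mice, with 2 to 14 reads per adult library.

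Promoter sequences were matched for 36 of the 47 carriers, in 46 windows of 250 bases before a transcription start, from RefSeq on GRCm38.p6. Both strands were searched for AAGGTCA (a half-site bound by nuclear receptors), TGACGTCA (the cAMP response element), CACGTG (an E-box) and CCAAT. The E-box lay in 8 of the 46 windows, belonging to 7 genes (Slc25a1, Slc25a13, Slc25a14, Slc25a15, Slc25a31, Slc25a33 and Slc25a36), and in 6.02% of 32851 windows of all genes. AAGGTCA was in 1 carrier window, that of Slc25a34, and in 4.08% of all windows. TGACGTCA was in windows of Slc25a25 and Slc25a36 and in 1.55% of all, and CCAAT in 21 of the 46 windows, belonging to 18 genes, and in 33.8% of all. Some windows of the same gene overlap, so the E-box of Slc25a14 and the CCAAT of Slc25a23 are counted more than once. No pair of these motifs shares letters in the stretches below, which are written 5′ to 3′ on the gene's strand with matches to any of the 4 motifs on either strand in capitals. Slc25a34 and Slc25a20 are shown because they had the largest differences in burned adult mice among separated carriers with a burned mean of at least 5 CPM, and Slc25a33 and Slc25a1 because they fell in burned aged mice and hold an E-box. Slc25a13, which rose in burned aged mice, also holds an E-box, beginning 125 bases before the start used for its window. That match lies inside the gene's annotated span, which reaches 6217304 on chromosome 6, so it is not upstream of every annotated start. The windows of Slc25a47 and Slc25a48, which fell there too, hold no E-box.
Slc25a34 (GRCm38.p6, chr4:141623892-141624084, minus strand): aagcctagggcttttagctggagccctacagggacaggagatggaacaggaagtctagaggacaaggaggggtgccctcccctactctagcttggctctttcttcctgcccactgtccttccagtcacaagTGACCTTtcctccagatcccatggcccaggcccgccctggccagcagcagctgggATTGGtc
Slc25a20 (GRCm38.p6, chr9:108661886-108662135, plus strand): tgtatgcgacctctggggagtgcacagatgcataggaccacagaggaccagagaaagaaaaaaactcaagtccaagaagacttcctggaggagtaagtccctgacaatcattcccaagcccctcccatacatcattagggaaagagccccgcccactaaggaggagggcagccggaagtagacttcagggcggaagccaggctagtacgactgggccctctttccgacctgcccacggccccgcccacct
Slc25a33 (GRCm38.p6, chr4:149774268-149774517, minus strand): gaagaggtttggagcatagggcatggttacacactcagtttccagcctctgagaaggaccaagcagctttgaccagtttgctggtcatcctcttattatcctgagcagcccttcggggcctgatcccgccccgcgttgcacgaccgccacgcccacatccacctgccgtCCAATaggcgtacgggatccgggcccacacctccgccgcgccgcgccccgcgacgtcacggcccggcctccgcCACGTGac
Slc25a1 (GRCm38.p6, chr16:17928220-17928469, minus strand): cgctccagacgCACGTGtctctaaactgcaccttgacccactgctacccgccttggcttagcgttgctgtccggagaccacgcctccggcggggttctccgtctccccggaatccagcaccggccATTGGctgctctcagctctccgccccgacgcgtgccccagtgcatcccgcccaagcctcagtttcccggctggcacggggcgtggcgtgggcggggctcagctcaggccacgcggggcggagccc
The Slc25a34 stretch is 193 bases, since the annotated span of the gene reaches further upstream than the start used for its window. Its AAGGTCA match begins 119 bases before the start used for the window, read on the opposite strand. The E-box begins 8 bases before the start of Slc25a33 and 239 bases before that of Slc25a1. The Slc25a20 window holds none of the 4 motifs. These matches describe the letters of the windows, and binding was not measured here.

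Several libraries carried transcripts of other cells. Adult libraries held 25231506 to 32236330 counted reads and aged ones 31846557 to 46531070. In Adult control 1 the summed level of 10 B and T cell markers was 1657 CPM, against at most 17.4 CPM in the other adult libraries, and the summed level of 10 adipocyte markers was 19920 CPM, against 44580 to 56480. In Adult burn 1 the sum of 10 skeletal muscle markers was 3298 CPM, against at most 65.0 CPM in the other adults. In aged mice the adipocyte sum was 42420 to 48380 CPM in controls and 24320, 9650 and 26330 CPM after burn. The sum of 10 macrophage markers was 454.8 to 825.9 CPM in aged controls and 5483, 15600 and 2982 CPM in Aged burn 1, 2 and 3, and that of 10 markers of dividing cells was 8.16 to 13.1 against 233 to 504 CPM. Every adipocyte, macrophage and lymphocyte marker had reads in every library, and the 7 mammary markers summed to at most 2.17 CPM. In bulk tissue, fewer cells of a type and less RNA per cell cannot be told apart.

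Scaled to the longest protein-coding transcript of each gene, the citrate carrier gene Slc25a1 was highest in adult controls, at a mean of 561 CPM per kilobase. Slc25a3, the phosphate carrier, followed at 281, the dicarboxylate carrier gene Slc25a10 at 265 and the ADP/ATP carrier genes Slc25a5 and Slc25a4 at 251 and 132 CPM per kilobase. The level of Slc25a1 in adult controls ranged from 409 to 1741 CPM, so that its place above Slc25a3 was not larger than the spread between libraries. In aged controls Slc25a3 led at 238 CPM per kilobase and Slc25a1 stood at 148. Over all its transcripts, the exons of Slc25a3 cover 5550 bases, against 1612 in that transcript, so its rank depends on the length used. All carriers together summed to 2770, 4020 and 5323 CPM in adult controls and, after burn, to 5360, 4788 and 6072 CPM, so the groups overlapped. Without Slc25a1, which held 14.8% to 32.7% of the carriers' reads in adults, the sums were 2360, 3369 and 3582 CPM in adult controls and 4098, 3981 and 4149 CPM after burn, with no overlap. In aged mice the sum of all carriers was 3060 to 3205 CPM in controls and 2295 to 2816 CPM after burn, with no overlap.

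The first comparison asked which carriers were higher in burned adult fat, where Ucp1 rose. Ucp1 was at 11.6, 12.7 and 22.9 CPM in adult controls and at 1188, 1046 and 1015 CPM after burn (log2 fold change 6.10 ± 0.37 SE, edgeR adjusted p = 0.016). Beside it no carrier passed the test: 0 of 40 were called, against 0.0411% of all genes tested (6 of 14600), and 13 of the 40 were at an unadjusted p under 0.05 in edgeR, against 638 of the 14600. DESeq2 called 1, Slc25a34, against 0.425% of all genes. In 14 of the 40 every burned library was higher than every control, which is 35.0% against 6.77% of all genes, and in 0 was every burned library lower, against 3.4% of all genes. Fold changes were positive for 30 of 40 carriers (75%, against 45.1% of all genes), with a median log2 of 0.26 against -0.04 over all genes. The 49 nuclear genes of oxidative phosphorylation had a median of 0.64 with 48 positive, so the carriers' median was smaller than theirs. The 18 thermogenic genes had a median of 2.37, and Ucp1, Fabp3, Dio2 and Gk among them rose. Without Adult control 1 the carriers' median was 0.15, and without that library and Adult burn 1 it was 0.18. Leaving out libraries cannot end a separation between groups: 14 carriers had no overlap without the first (9.2% of all genes) and 16 without both (12.3%).

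The widest gap in CPM between the highest control and the lowest burned library of adults, 71.7 CPM, was that of Slc25a20, the carnitine-acylcarnitine translocase through which long-chain fatty acids enter the matrix. Slc25a20 was at 51.0, 95.7 and 155 CPM in adult controls and at 247, 227 and 251 CPM after burn. The burned libraries lay close together and the controls were spread over a 3.04-fold range, with Adult control 1 lowest. Its log2 fold change was 1.26 ± 0.38 (SE; edgeR adjusted p = 0.788), and 0.93 without Adult control 1. In aged mice Slc25a20 was at 80.7, 81.6 and 73.8 CPM in controls and at 92.5, 73.8 and 67.6 CPM after burn, and these groups overlapped (log2 -0.01 ± 0.15). The gene (Entrez 57279) lies on chromosome 9 from 108662136 to 108684642 of GRCm38, on the plus strand. Of the 5 other genes of the carnitine shuttle, 0 passed in burned adults (median log2 0.61).

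Cofactor carriers were the largest substrate group among the 14: in 6 of 9 every burned adult library was higher than every control, and 8 of 9 had positive fold changes (median log2 0.53). Slc25a42, the coenzyme A carrier, was at 25.2, 36.8 and 20.5 CPM in adult controls and 47.2, 47.8 and 41.2 CPM after burn (log2 0.72 ± 0.23). Slc25a51, which imports NAD into mitochondria, was at 115, 174 and 153 CPM in controls and 254, 219 and 232 CPM after burn (log2 0.67 ± 0.19). The gap between the highest control and the lowest burned library was 4.41 CPM for Slc25a42 and 45.3 CPM for Slc25a51. The others included Slc25a39, needed for mitochondrial glutathione (log2 0.65), the peroxisomal carrier gene Slc25a17 (0.53) and the folate and FAD carrier gene Slc25a32 (0.51). All 6 had an edgeR adjusted p of 0.788.

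Slc25a34 and Slc25a48, both low in controls, had the largest fold changes in burned adults. Slc25a34, a carrier with no assigned substrate, was at 1.27, 2.00 and 6.14 CPM in adult controls and 11.4, 25.8 and 12.7 CPM after burn (log2 2.41 ± 0.66, edgeR adjusted p = 0.788; DESeq2 adjusted p = 0.0326). Slc25a48, linked to choline import into mitochondria, was at 1.03, 1.61 and 0.502 CPM in controls and 5.28, 2.98 and 3.15 CPM after burn (log2 1.84 ± 0.49). In both genes the burned libraries were above all controls and differed among themselves, with Adult burn 2 highest for Slc25a34 and Adult burn 1 for Slc25a48. Slc25a35, a close relative of Slc25a34, was at 42.4, 63.4 and 56.0 CPM in controls and 88.8, 81.9 and 101 CPM after burn (log2 0.74 ± 0.18). Exons of Slc25a35 overlap 1151 bases of Rangrf on the opposite strand, which was at a mean of 2.99 CPM in adult controls and 3.05 CPM after burn. The pyrimidine nucleotide carrier gene Slc25a33 was at 7.31, 11.8 and 12.9 CPM in controls and 18.6, 18.0 and 15.8 CPM after burn (log2 0.71 ± 0.25). The remaining members of the 14 were Slc25a46, which encodes an outer membrane protein of mitochondrial dynamics (0.42), Slc25a11, the oxoglutarate-malate carrier (0.39), and Slc25a36, the other pyrimidine nucleotide carrier (0.23), whose groups were 0.292 CPM apart.

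**Figure D1:**
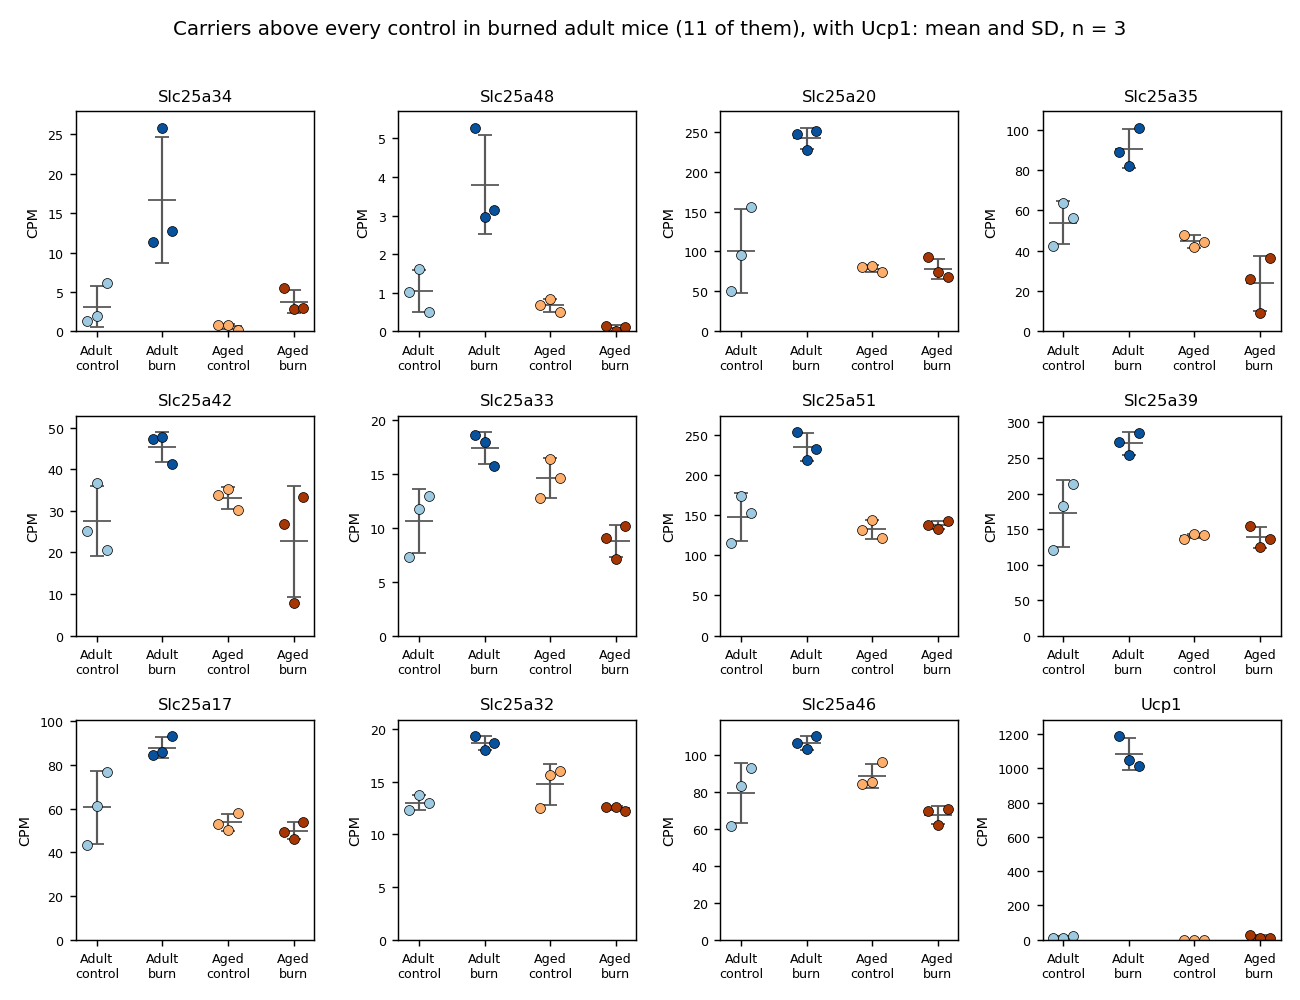
Each panel plots CPM (y axis, from 0) by group (x axis) for 1 gene: points are libraries, the horizontal bar is the mean and the whiskers the SD of n = 3. In burned adult mice all 3 libraries of the 11 carriers shown lie above all 3 adult controls, and Ucp1 goes from at most 22.9 to at least 1015 CPM.

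Levels of the phosphate carrier gene Slc25a3 and the ADP/ATP carrier genes Slc25a4 and Slc25a5 overlapped between adult controls and burned adults. Slc25a3 was at 380, 479 and 499 CPM in adult controls and 530, 471 and 550 CPM after burn (log2 0.19 ± 0.19). Slc25a5 was at 220, 302 and 412 CPM in controls and 382, 404 and 423 CPM after burn (0.37 ± 0.25). Slc25a4, the ADP/ATP carrier typical of muscle and heart, was at 178, 296 and 287 CPM in controls and 381, 295 and 308 CPM after burn (0.37 ± 0.24). In all 3 genes Adult control 1 was the lowest adult library and the groups overlapped. The highest adult value of Slc25a4 was in Adult burn 1, the library with skeletal muscle transcripts, and their part in it was not tested. Slc25a4 and Slc25a5 are close paralogs, and how shared reads were assigned is not given in the sources used here. Slc25a44, which brings branched-chain amino acids into brown fat mitochondria, was at 55.1, 108 and 73.1 CPM in controls and 104, 105 and 101 CPM after burn (0.39 ± 0.24), so that 1 control exceeded all burned libraries. Slc25a25, an ATP-Mg and phosphate carrier, was at 35.6, 53.0 and 56.0 CPM in controls and 49.3, 45.8 and 45.0 CPM after burn (-0.05 ± 0.19), and Slc25a1 was at 409, 652 and 1741 CPM in controls and 1262, 807 and 1923 CPM after burn (0.51 ± 0.60). Of 12 genes of branched-chain amino acid breakdown all had positive fold changes (median 0.43) and 0 were called. The largest negative fold change in adults was that of Slc25a53 (-1.15 ± 0.76), which was at 9.84 CPM in Adult control 1 and 1.43 to 2.20 CPM in the other 5 adult libraries.

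The same question was put to aged fat. Burn in aged mice changed 12 of 42 carriers (28.6%), against 16.7% of all genes tested (2534 of 15132). Slc25a13, Slc25a43, Slc25a34, Slc25a45, Slc25a12, Slc25a24, Slc25a37 and Slc25a30 rose (8 of 42, 19.0%, against 13.7% of all genes), and Slc25a48, Slc25a47, Slc25a1 and Slc25a33 fell (4 of 42, 9.52%, against 3.03%). Slc25a43 and Slc25a34 met the low-count filter here only with the burned libraries counted, and Slc25a48 only with the controls. For these genes the filter favored the direction called. Fold changes were negative for 28 of 42 carriers, with a median log2 of -0.21 against -0.01 over all genes. In 8 of 42 carriers every burned library was higher than every control (19.0%, against 26.3% of all genes). In 16 every burned library was lower (38.1%, against 24.3% of all genes). The 49 oxidative phosphorylation genes had a median of -0.30, and 2 of them, Ndufb3 and Ndufa5, fell. Of the markers described above, 9 of 10 macrophage and all 10 dividing-cell genes rose in the same comparison and 1 of 10 adipocyte genes, Retn, fell (median log2 3.55, 5.23 and -1.16), and their part in the carriers' changes was not tested. The calls of carriers and of all genes moved together when 1 library was left out. Without Aged control 3 no carrier and no gene passed, with 16 carriers and 4227 genes at an unadjusted edgeR p under 0.05. There was 1 carrier call without Aged control 2 (410 genes in all), 2 without Aged control 1 (575 genes) and 2 without Aged burn 1 (872 genes). There were 14 carrier calls without Aged burn 2 (3265 genes) and 21 without Aged burn 3 (5743 genes), each time holding the same 12. Slc25a13 was called under every other omission and had an adjusted p of 0.0517 without Aged control 3, and Slc25a43 was lost without Aged control 2 or 3. The other 10 were lost without any 1 of the aged controls or without Aged burn 1, while their direction stayed in each case.

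The largest fold change among the 42 Slc25a carriers tested in aged fat was in the aspartate-glutamate carriers, which move reducing equivalents into mitochondria in the malate-aspartate shuttle. Slc25a13, which encodes citrin, was at 1.09, 0.72 and 0.502 CPM in aged controls and 19.9, 14.4 and 8.46 CPM after burn, with 23 to 38 reads per control library and 303 to 789 after burn. Its log2 fold change was 4.22 ± 0.45 (SE, edgeR adjusted p = 0.00565), and no control came near a burned library. Slc25a12, which encodes the relative aralar, was at 7.94, 7.00 and 9.97 CPM in controls and 21.1, 30.3 and 14.0 CPM after burn (log2 1.39 ± 0.31, adjusted p = 0.0302). In adult mice the groups overlapped for both, and Slc25a13 was at 0.999 to 2.04 CPM in controls and 0.595 to 3.11 after burn. The glutamate carrier gene Slc25a22 went the other way in aged mice, from 109, 143 and 77.5 CPM in controls to 61.8, 43.2 and 64.7 CPM after burn (log2 -0.95 ± 0.26), and missed the threshold (adjusted p = 0.0545). Of 6 enzymes of the malate-aspartate and glycerol phosphate shuttles, Got1, the cytosolic aspartate aminotransferase, rose (log2 1.70) and Gpd2, the mitochondrial glycerol phosphate dehydrogenase, fell (-0.89). Slc25a13 (Entrez 50799) spans 6041218 to 6217304 on the minus strand of chromosome 6.

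Slc25a24, an ATP-Mg and phosphate carrier, was at 25.0, 18.1 and 27.5 CPM in aged controls and 64.1, 76.8 and 43.5 CPM after burn (log2 1.39 ± 0.26, adjusted p = 0.0188). Its relatives were lower without passing: Slc25a23 was at 163, 185 and 180 CPM in controls and 94.4, 35.6 and 131 CPM after burn (-1.01 ± 0.43). Slc25a25 was at 67.0, 49.5 and 72.5 CPM in controls and 43.8, 20.6 and 68.0 CPM after burn (-0.51 ± 0.41), with overlap. Aged burn 2 had the highest macrophage and lowest adipocyte sums of the burned aged libraries, a neutrophil sum (8 markers) of 1712 CPM against 29.0 and 23.0 CPM in Aged burn 1 and 3, and a skeletal muscle sum of 462.5 against 98.7 and 47.1 CPM. This library was highest for Slc25a24 and lowest for Slc25a23 and Slc25a25, and the part of cell makeup in these differences was not tested. Slc25a37, mitoferrin 1 of erythroid iron import, was at 21.3, 23.8 and 15.0 CPM in controls and 30.7, 45.7 and 34.4 CPM after burn (0.89 ± 0.23, adjusted p = 0.0458). The sum of 4 erythroid markers was 259.5 to 544.7 CPM in aged controls and 280.2 to 504.1 CPM after burn, which overlap. Slc25a28, mitoferrin 2, was at 46.2, 50.2 and 50.5 CPM in controls and 51.5, 36.0 and 41.4 CPM after burn (-0.19 ± 0.15).

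Among the carriers without an assigned substrate, 3 rose in aged burn. Slc25a34 was at 0.834, 0.873 and 0.218 CPM in aged controls and 5.45, 2.89 and 3.02 CPM after burn (log2 2.56 ± 0.57, adjusted p = 0.0311), below the 11.4 to 25.8 CPM of burned adults. It had only 29, 40 and 10 reads in the aged controls. Slc25a45 was at 11.7, 11.1 and 8.86 CPM in controls and 25.3, 41.2 and 18.1 CPM after burn (1.42 ± 0.31, adjusted p = 0.0302). Slc25a43 had 5 to 10 reads per aged control and 42 to 112 after burn, or 0.288, 0.109 and 0.131 against 1.94, 2.92 and 1.17 CPM (3.53 ± 0.54, adjusted p = 0.0111). It was tested only because the burned libraries met the low-count filter, so a fall could not have been called. Aged burn 2 was highest for Slc25a43 and Slc25a45, and Aged burn 1 for Slc25a34. Slc25a30, a relative of the uncoupling proteins best known from kidney, was at 10.1, 10.1 and 11.5 CPM in controls and 18.7, 21.3 and 14.0 CPM after burn (0.77 ± 0.19, adjusted p = 0.0412). Ucp2, the uncoupling protein homolog that is common in immune cells, rose by 2.69 on the log2 scale (105, 76.2 and 108 CPM in controls and 666, 872 and 334 CPM after burn), and Ucp1 rose to 30.5, 7.94 and 11.8 CPM from at most 0.48 CPM. Of 17 thermogenic genes tested in aged mice 5 rose (Ucp1, Fabp3, Dio2, Cox7a1 and Acot11) and 3 fell (Cidea, Ppargc1a and Otop1), with a median log2 of 0.13. Ucp3, the uncoupling protein homolog typical of skeletal muscle, was at 66.2, 75.3 and 56.1 CPM in aged controls and 30.4, 7.81 and 37.2 CPM after burn and did not pass (-1.39 ± 0.52, adjusted p = 0.107). In adults Ucp3 was at 37.7, 69.1 and 94.4 CPM in controls and 120, 108 and 134 CPM after burn (0.84 ± 0.32, adjusted p = 0.788), so that its groups were separated at both ages, with opposite signs.

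The 4 carriers that fell came from 3 of the substrate groups. Slc25a1, which exports the citrate used for fatty acid synthesis, was at 264, 287 and 188 CPM in aged controls and 141, 99.5 and 152 CPM after burn (log2 -0.91 ± 0.24, adjusted p = 0.0464). Of 8 genes of citrate synthesis and lipogenesis 0 passed, with a median log2 of -1.12 and 7 negative. Slc25a33 was at 12.8, 16.4 and 14.7 CPM in controls and 9.11, 7.16 and 10.1 CPM after burn (-0.73 ± 0.19, adjusted p = 0.0453). Slc25a47, best known from liver, was at 3.54, 3.21 and 3.56 CPM in controls and 1.31, 1.09 and 2.09 CPM after burn (-1.19 ± 0.31, adjusted p = 0.045), and the albumin gene Alb also fell (43.6, 44.1 and 57.9 CPM in controls and 12.8, 10.7 and 18.4 CPM after burn). Alb made up nearly all of the summed level of 5 liver markers (43.8 to 58.2 CPM in aged controls), of which 1 to 3 were at 0 in each aged library, and its part was not tested. Slc25a48 had 24, 38 and 23 reads in aged controls and 6, 0 and 4 after burn (0.691, 0.829 and 0.502 against 0.151, 0 and 0.112 CPM; log2 -2.90 ± 0.76, adjusted p = 0.0478). No burned library reached a control for any of the 4. Slc25a48 rests on few reads, and Slc25a47 had 42 to 163 reads per aged library.

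**Figure D2:**
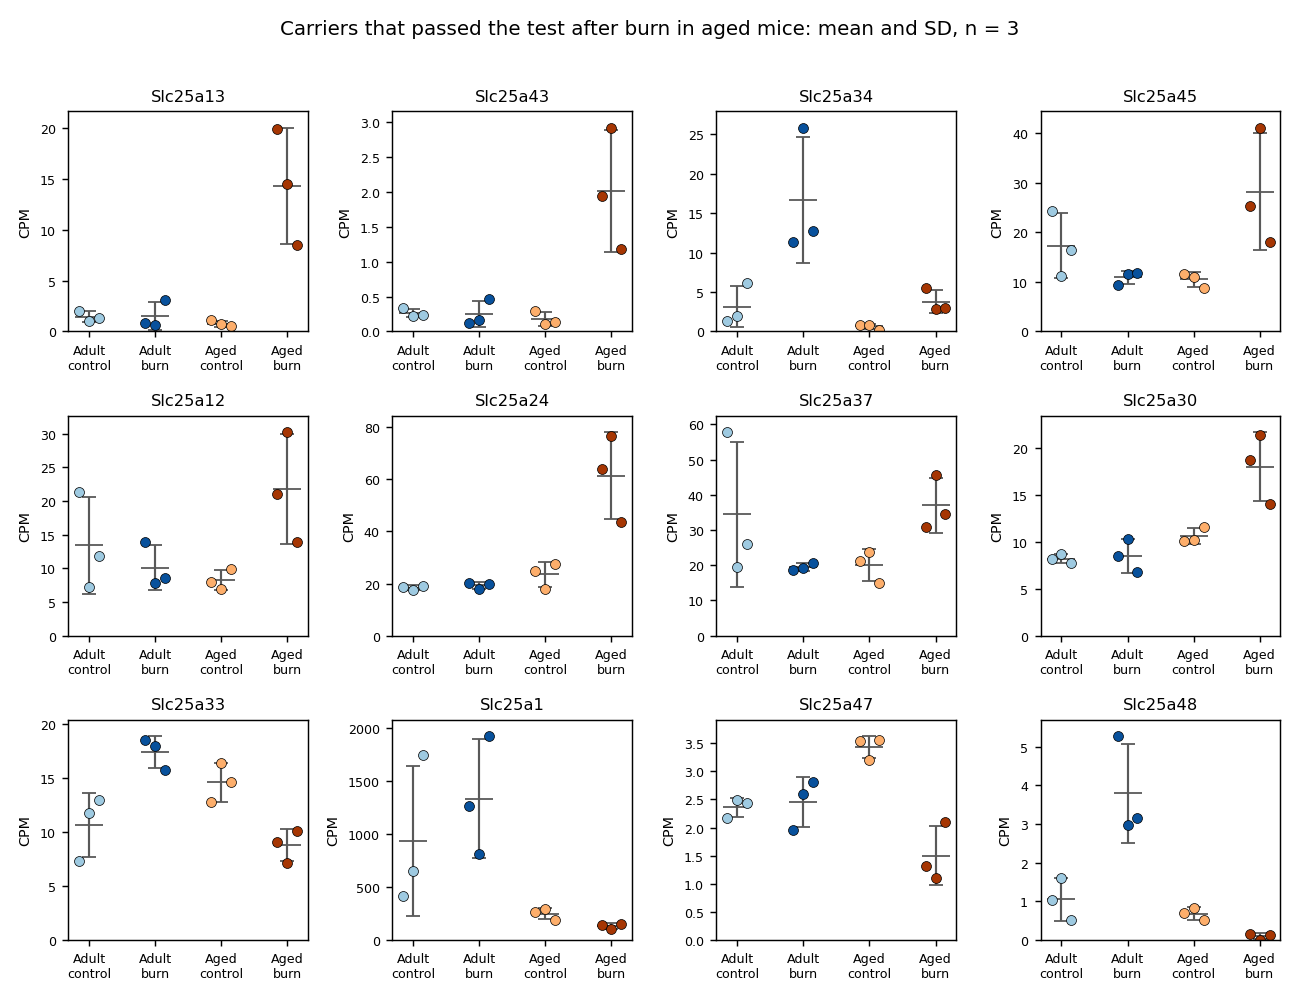
Each panel plots CPM (y axis, from 0) by group (x axis) for 1 of the 12 carriers that passed the test in burned aged mice: points are libraries, the horizontal bar is the mean and the whiskers the SD of n = 3. In aged mice the burned libraries lie above all controls for 8 carriers and below all controls for Slc25a33, Slc25a1, Slc25a47 and Slc25a48.

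The phosphate carrier gene Slc25a3 and the ADP/ATP carrier genes Slc25a4 and Slc25a5 did not pass in burned aged mice. Slc25a3 was at 372, 385 and 394 CPM in controls and 433, 412 and 341 CPM after burn (log2 0.05 ± 0.17), and Slc25a5 at 263, 254 and 269 against 293, 288 and 260 CPM (0.10 ± 0.14). Slc25a4 was at 274, 275 and 345 CPM in controls and 261, 215 and 248 CPM after burn (-0.30 ± 0.17, adjusted p = 0.22), with no overlap. Slc25a44 was at 85.8, 101 and 80.0 CPM in controls and 62.3, 36.8 and 72.5 CPM after burn (-0.64 ± 0.26, adjusted p = 0.123), also with no overlap. All 12 genes of branched-chain amino acid breakdown had negative fold changes (median -0.89), and 1 of them, Mccc1, fell. Among 9 cofactor carriers 8 had negative fold changes and 0 passed (median -0.24). Of 7 genes of mitochondrial folate and proline metabolism 6 rose (Mthfd1l, Mthfd2, Aldh1l2, Aldh18a1, Pycr1 and Shmt2, median 1.40), while the folate carrier gene Slc25a32 was at 12.5, 15.7 and 16.1 CPM in controls and 12.6, 12.6 and 12.3 CPM after burn (-0.24 ± 0.15). Among genes of other mitochondrial transporters, Sfxn3 rose and Mpc1, Micu3 and Sfxn5 fell.

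**Figure D3:**
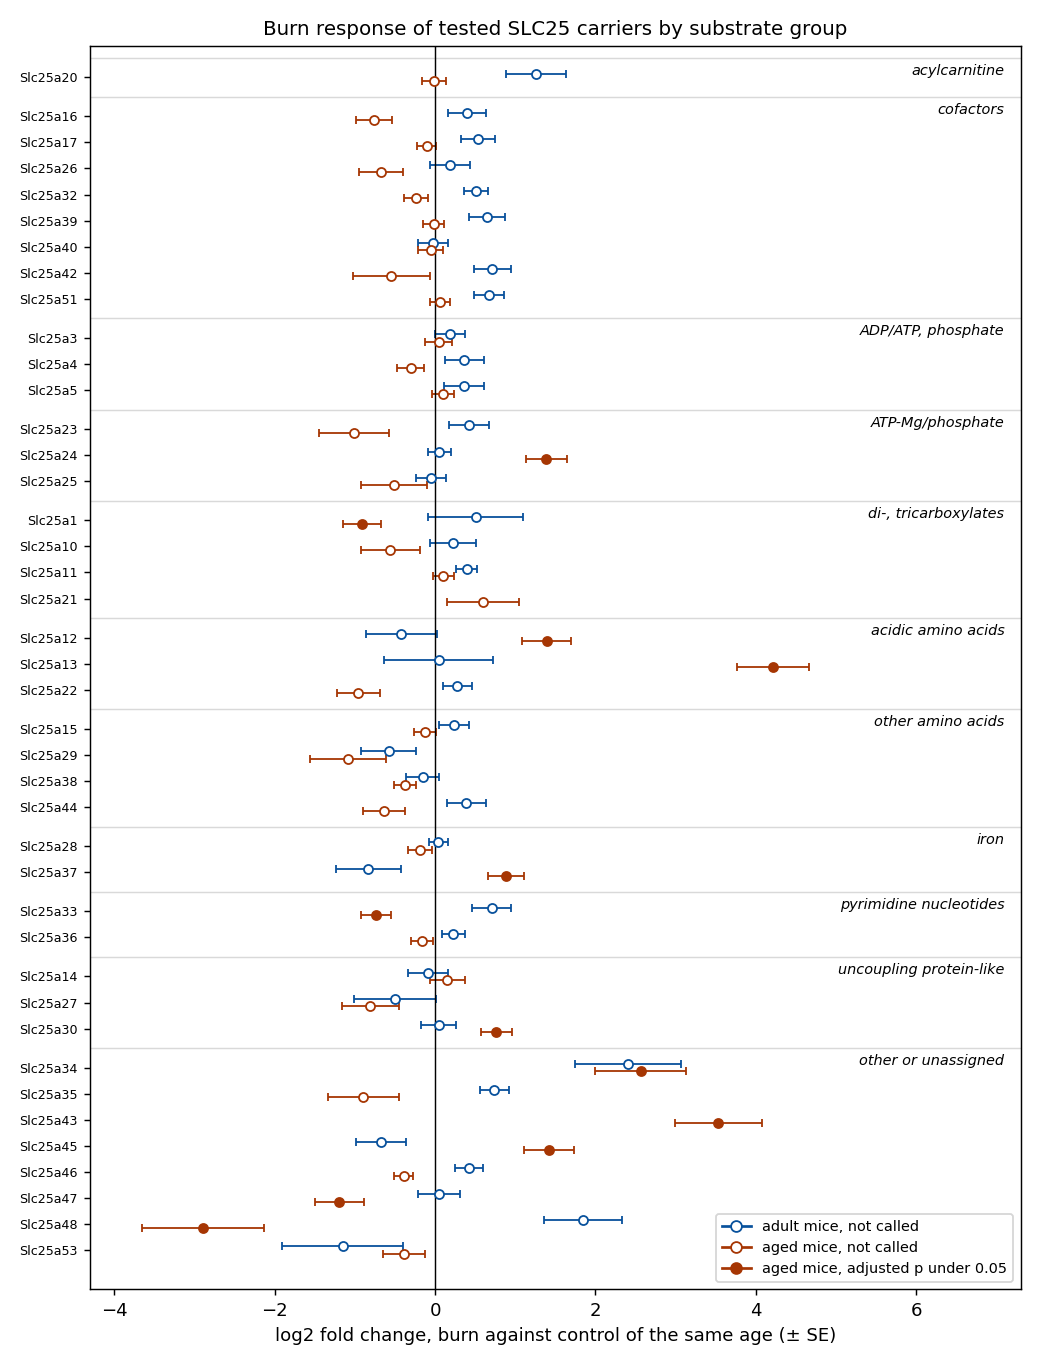
The x axis gives the log2 fold change of burn against control with its SE for the tested carriers drawn (y axis), sorted by substrate; blue is adult and red-brown aged mice, and filled symbols passed edgeR's test. Most cofactor carriers lie right of 0 in adult and left of 0 in aged mice, and the 12 filled symbols are all from aged mice.

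The difference between the burn responses was then tested. The log2 response differed between the ages for 10 of 42 carriers (23.8%), against 11.9% of all genes (1845 of 15553). It was larger in aged mice for Slc25a13 (4.16 ± 0.87), Slc25a43 (3.60 ± 0.83), Slc25a45 (2.09 ± 0.46), Slc25a37 (1.71 ± 0.50) and Slc25a24 (1.32 ± 0.30), 11.9% of the carriers against 9.64% of all genes. It was smaller for Slc25a48 (-4.74 ± 0.97), Slc25a33 (-1.44 ± 0.32), Slc25a22 (-1.24 ± 0.34), Slc25a46 (-0.82 ± 0.21) and Slc25a32 (-0.76 ± 0.19), 11.9% against 2.22% of all genes. All 10 had an edgeR adjusted p between 0.0205 and 0.0495. Slc25a43 met the low-count filter over the 12 libraries only with the burned aged ones counted. The differences of Slc25a37 and Slc25a45 include high values in Adult control 1, the library with lymphocyte transcripts: Slc25a37 was at 57.9 CPM there and 19.4 and 26.0 CPM in the other adult controls, and Slc25a45 at 24.2 against 11.2 and 16.4 CPM. No carrier and no gene passed without Adult burn 1, Adult burn 2, Aged control 2 or Aged control 3 (20, 24, 20 and 20 carriers and 4273, 4561, 4353 and 4489 genes had an unadjusted edgeR p under 0.05). The count of carriers was 3 when Aged control 1 or Aged burn 1 was left out (354 and 719 genes in all) and 6 when Aged burn 2 or Adult burn 3 was (811 and 915 genes). It was 7, 13 and 15 when Adult control 1, 2 or 3 was left out (1245, 2897 and 2503 genes), and 19 when Aged burn 3 was (4039 genes).

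Slc25a33 and Slc25a48 lay above all controls in burned adults and below all controls in burned aged mice. The same separation held for Slc25a35, whose aged values were 47.8, 41.7 and 44.3 CPM in controls and 25.9, 9.40 and 36.5 CPM after burn, but its difference did not pass (-1.64 ± 0.52, adjusted p = 0.0606). It also held for Slc25a46. The share of all genes with this pattern was not computed. Slc25a46 was at 61.5, 83.2 and 93.2 CPM in adult controls and 106, 103 and 110 CPM after burn, and at 84.3, 85.6 and 96.4 CPM in aged controls and 69.7, 62.0 and 70.8 CPM after burn. Slc25a20 had a smaller response in aged mice that missed the threshold (-1.28 ± 0.43, adjusted p = 0.0733; 0.0268 in DESeq2). Slc25a34 had nearly equal log2 responses, with a difference of 0.15 ± 0.87 (adjusted p = 0.869), whose SE leaves room for a large difference either way. Slc25a12 (1.80 ± 0.57, adjusted p = 0.0618), Slc25a44 (-1.03 ± 0.38), Slc25a1 (-1.42 ± 0.69), Slc25a4 (-0.68 ± 0.30), Slc25a25 (-0.47 ± 0.49), Slc25a5 (-0.27 ± 0.28) and Slc25a3 (-0.15 ± 0.23) did not pass. In the carnitine shuttle Cpt1a had a larger response in aged mice (1.13) and Cpt1b and Cpt2 smaller ones (-2.10 and -1.48). Among the 18 thermogenic genes the difference passed with a negative sign for 9 and with a positive sign for 0.

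Shares within related carriers were computed from each library's reads. In aged mice Slc25a13 made up 12.1%, 9.32% and 4.79% of the reads of Slc25a12 and Slc25a13 in controls and 48.6%, 32.3% and 37.7% after burn. Slc25a24 made up 9.81%, 7.16% and 9.82% of the reads of the 3 ATP-Mg and phosphate carriers Slc25a23, Slc25a24 and Slc25a25 in controls and 31.7%, 57.8% and 17.9% after burn. Slc25a37 made up 31.5%, 32.2% and 23.0% of mitoferrin reads in controls and 37.4%, 55.9% and 45.4% after burn. All 3 shares were higher in every burned aged library. The share of Slc25a5 among the reads of Slc25a4 and Slc25a5 went from a mean of 46.9% ± 2.75 to 53.8% ± 3.15 (SD, n = 3), again with no overlap. Each of these 4 had an exact two-sided permutation p of 0.1, the smallest that 3 against 3 libraries can give, and 0.191 after Benjamini-Hochberg adjustment over 21 comparisons. In adult mice the same 4 shares overlapped between controls and burned libraries, with an exact permutation p of 0.3 to 1. The other 3 shares computed separated in adults. Slc25a33 made up 29.3% ± 5.24 of the reads of Slc25a33 and Slc25a36 in adult controls and 37.0% ± 1.35 after burn, against 28.9% ± 1.49 and 21.6% ± 2.85 in aged mice, where it was lower in every burned library. Slc25a34 made up 5.28% ± 3.99 of the reads of Slc25a34 and Slc25a35 in adult controls and 15.5% ± 7.34 after burn, and 1.42% ± 0.821 and 16.2% ± 8.01 in aged mice, higher in every burned library at both ages. Slc25a39 made up 94.6% ± 2.00 of the reads of Slc25a39 and Slc25a40 in adult controls and 96.7% ± 0.303 after burn, with no overlap, while the groups overlapped in aged mice. Each of these separated comparisons also had an exact permutation p of 0.1 (adjusted 0.191).

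**Figure D4:**
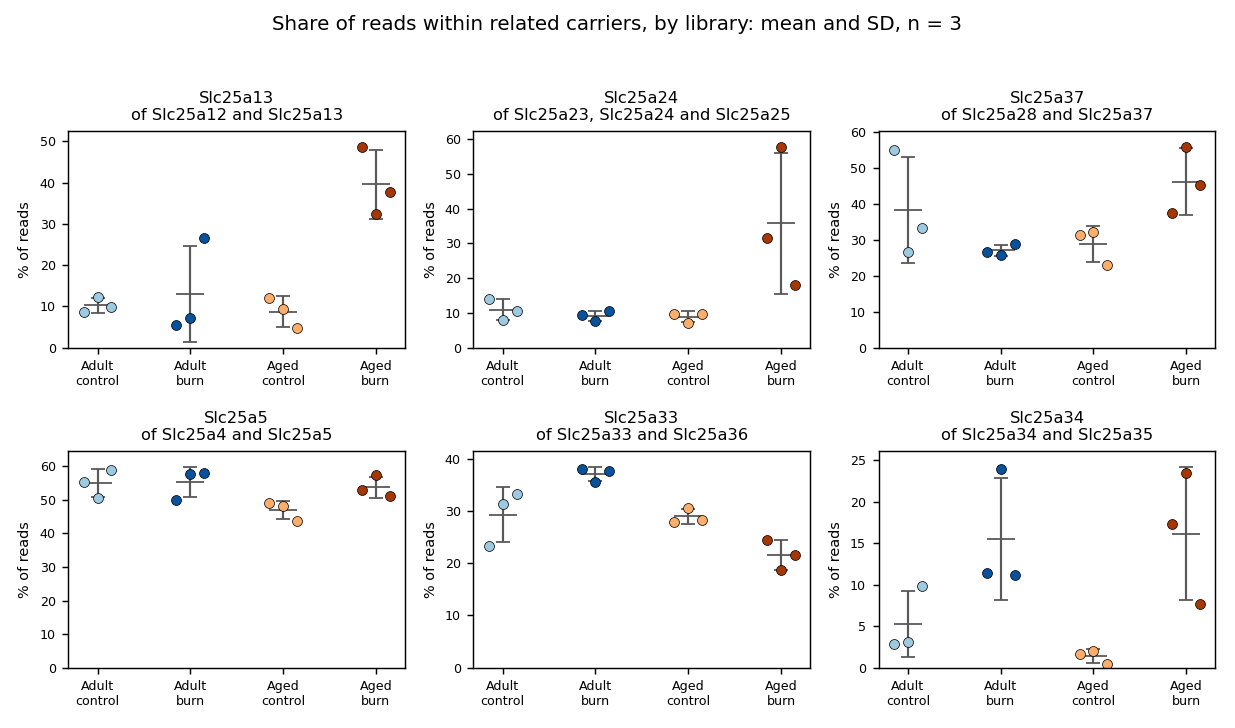
Each panel plots the percent of reads from 1 carrier among related carriers (y axis, from 0) by group (x axis): points are libraries, the horizontal bar is the mean and the whiskers the SD of n = 3. In burned aged mice Slc25a13 lies between 32.3% and 48.6% of its pair, above every other library.

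Aged and adult controls were compared last. No carrier passed edgeR's test (0 of 42, with 4 at an unadjusted p under 0.05), against 0.424% of all genes (66 of 15553). DESeq2 called 3 of 42, Slc25a1 and Slc25a34 lower and Slc25a36 higher in aged controls, against 14.0% of all genes. In 6 of 42 carriers every aged control was higher than every adult control (14.3%, against 17.4% of all genes), and in 2 every aged control was lower (4.76%, against 15.5%). The 2 were Slc25a1 (264, 287 and 188 against 409, 652 and 1741 CPM; log2 -1.92 ± 0.50, adjusted p = 0.0829) and Slc25a34, named after its values were seen (-2.28 ± 0.68, adjusted p = 0.0877). Beside Slc25a1, Acly, which splits citrate in the cytosol, and the elongase gene Elovl6 were lower in aged controls and passed (log2 -3.27 and -3.45). They were 2 of the 8 genes of citrate synthesis and lipogenesis. Of the 18 thermogenic genes, Ucp1 and Dio2 also passed, lower in aged controls (log2 -5.74 and -1.86). The 6 higher carriers were Slc25a36, with 33.2, 37.2 and 37.1 CPM in aged and 24.0, 25.8 and 26.0 CPM in adult controls (0.50 ± 0.13, adjusted p = 0.0829), Slc25a23 (0.68), Slc25a30 (0.37), Slc25a40 (0.28) and, outside the naming rule, Slc25a47 (0.54) and Slc25a14 (0.30). Slc25a3 (-0.24), Slc25a4 (0.23), Slc25a5 (-0.25), Slc25a20 (-0.35), Slc25a25 (0.39) and Slc25a44 (0.18) overlapped between the ages.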

How the data were processed

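Per the labels' protocols, RNA was extracted with Trizol, poly(A) RNA was isolated and directional libraries were made. Per the submitters' processing notes, FastQC, MultiQC, cutadapt, HISAT2 and featureCounts were used with mm10; their versions, the annotation and the strand setting of counting are not known from these notes. The authors deposited raw gene counts in 1 table per age, joined here on Entrez identifier. Symbols came from RefSeq (25275 identifiers matched), transcript lengths and exon overlaps from GENCODE. Exons of 14 members overlap another gene, so their reads may be shared. The called members among them are Slc25a33, Slc25a37, Slc25a46 and Slc25a47.

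The count model was edgeR 4.0.16 in R 4.3.3, with filterByExpr, TMM scaling, quasi-likelihood F tests, Benjamini-Hochberg adjustment over all genes tested and a threshold of 0.05. A gene that passed is "called". Burn was tested on the 6 libraries of each age, and the difference between responses and between controls in a model over 12. SEs follow from each log2 fold change and its F statistic (change over root F). CPM values were TMM-scaled over 12 libraries. No overlap means that every library of one group exceeds every library of the other.

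Named with values were called members, the 6 largest log2 changes without overlap and at least 5 CPM in the higher group, and Slc25a1, Slc25a3, Slc25a4, Slc25a5, Slc25a20, Slc25a25 and Slc25a44; others fill out counts. A few values are counted but not reported here by gene. Of other genes, only Ucp1, Ucp2, Ucp3, called list members, markers and Rangrf, which overlaps a member, are named. The members, 32 lists and tests were chosen with earlier results of these data known. Alternatives used other scalings and filters, DESeq2 1.42.0, limma-voom (limma 3.58.1), the replicate number as a block and each library left out; leaving out Adult control 1 with Adult burn 1, and recounting non-overlap with libraries left out, were added after seeing the data. Simulated counts were used to test the steps. Library pairs within a group all differed beyond sampling noise (chi-square per degree of freedom at least 30.3).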

Additional observations from a re-analysis of the deposited data

Results flagged for a closer look

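For 10 carriers the burn response itself differed between the ages by edgeR's interaction test. The aged response exceeded the adult one, on the log2 scale, by 4.158 for Slc25a13, 3.599 for Slc25a43, 2.087 for Slc25a45, 1.708 for Slc25a37 and 1.325 for Slc25a24. It was smaller, with a difference of -4.737 for Slc25a48, -1.444 for Slc25a33, -1.238 for Slc25a22, -0.8202 for Slc25a46 and -0.7579 for Slc25a32. Across the 20 alternatives run, the difference passed in 14 for Slc25a13, 13 for Slc25a45 and Slc25a48, 12 for Slc25a24 and Slc25a33, 11 for Slc25a43, 10 for Slc25a32, 9 for Slc25a46, 8 for Slc25a22 and 5 for Slc25a37. The direction was the same in all of them.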

How the results depend on the processing

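The log2 values of named carriers kept their direction under the alternatives run, apart from 10 values. For burn in adult mice Slc25a25 turned to 0.021 without Adult control 2 and 0.074 without Adult control 3 (-0.24 without Adult control 1). For burn in aged mice Slc25a3 turned to -0.022 with upper-quartile scaling and -0.024 without Aged burn 1 (0.14 without Aged burn 3), and Slc25a20 to 0.028 without Aged burn 2 and 0.078 without Aged burn 3 (-0.15 without Aged burn 1). Between controls, Slc25a5 (main -0.25) turned to 0.012 with the replicate block and 0.0056 without Adult control 3 (-0.46 without Adult control 1). Slc25a20 (main -0.35) turned to 0.10 without Adult control 3 (-0.68 without Adult control 1). Slc25a44 (main 0.18) turned to -0.032 without Adult control 1 (0.48 without Adult control 2). Replicate blocks lie within the ages, so the blocked fit does not estimate the difference between control groups. The 0.012 of Slc25a5 there depends on which replicates serve as reference. The cause of the other turns was not tested. Counts of called carriers were 0 to 21 with 1 library left out for burn in aged mice (main 12), 0 to 19 for the difference between ages (main 10), 0 to 1 for controls (main 0; the 1 was without Adult control 2) and 0 for burn in adult mice. DESeq2 gave 1 for burn in adults, 19 for the difference and 3 for controls (0.425%, 24.3% and 14.0% of all genes). Without Adult control 1 and Adult burn 1 together the difference had 0 calls among carriers and all genes (17 carriers at an unadjusted p under 0.05 in edgeR). Same-numbered control and burn libraries had correlations of deviations of 0.0155, -0.00151 and 0.234 in adults and -0.117, -0.211 and -0.0658 in aged mice. Differently numbered ones lay between -0.202 and 0.168 in adults and between -0.277 and 0.273 in aged mice. So few values cannot show whether replicate numbers pair the libraries. With the number as a replicate block, 3 carriers and 917 genes in all were called for burn in aged mice. In burned adults and for the difference, 0 carriers and 0 genes were called. There, 12 and 23 carriers and 455 and 4480 genes were at an unadjusted edgeR p under 0.05. For controls the blocked fit gives no usable count, since the blocks lie within the ages. Depth limits the precision of low carriers: Slc25a48 had 0 to 6 reads per burned aged library and an SE of 0.76 on its log2 change.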
